A study of Mus musculus with 12 samples.

Results

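The transcription factors that mark the cerebellar granule lineage were followed in RNA-seq of the external granule layer (EGL) of mouse pups. The 10 genes, of 53379 in the count tables, were taken by name: Atoh1, Barhl1, Barhl2, Insm1, Hes6, Neurod1, Neurod2, Pax6, Meis1 and Etv1. The layer was cut by laser from the central lobules of C57BL/6 cerebella at postnatal day 6. The KO group was a conditional knockout of SnoN, the SMAD-binding transcriptional regulator encoded by Skil, and the WT group was control littermates labelled wild type. The labels name neither the Cre driver nor the deleted part of Skil, and they do not say whether animals were pooled. There were 6 libraries in each group, written as KO2 or WT1 by the number in the title. KO4 and WT2 were marked as outliers by the submitters, so the comparison used 5 KO against 5 WT libraries. The genotype tag of KO2 reads wild type although its title reads KO, and it was kept as KO.

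Granule neurons arise from progenitors of the rhombic lip that spread over the cerebellum as the EGL. Cells in the outer EGL divide under Sonic hedgehog from Purkinje cells, and cells that leave the cycle pass to the inner EGL, extend axons and migrate inwards. Atoh1 is the basic helix-loop-helix (bHLH) factor that specifies the precursors and holds them in the dividing state, and Neurod1 is the related factor that rises as they differentiate. The other 8 genes act before, at or after that step. In bulk samples of dissected tissue fewer cells of a type and less RNA per cell cannot be told apart.

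Gene counts summed to between 7520076 and 15083086 per library, and the lowest count of any of the 10 genes in the compared libraries was 77 reads (Etv1 in WT6). Levels are given as counts per 1e+06 counts (CPM) scaled by TMM factors, which adjust for differences in library composition. Skil, the targeted gene, had 36.1 CPM (KO2), 36.7 (KO3), 20.9 (KO5), 30.1 (KO6) and 29.9 (KO8), against 47.5 CPM (WT1), 57.8 (WT3), 57.3 (WT5), 38.5 (WT6) and 48.5 (WT7), and the marked libraries had 14.0 CPM (KO4) and 76.5 CPM (WT2). Every KO library lay below every WT library. The labels tie no library to an animal, so the p-values rest on variation from library to library, and part of that may be technical. The 5 markers of granule precursors, Atoh1 among them, summed to 639 to 765 CPM in the 5 KO libraries and 551 to 670 CPM in the 5 WT libraries. Mycn was the largest part of that sum, at a mean of 335 CPM in KO and 263 CPM in WT. Of these 5 markers 3 had a positive log2 fold change and 2 a negative one (Ccnd1 and Gli1). The 8 Purkinje cell markers summed to 305 to 516 CPM in KO and 243 to 346 CPM in WT, with Ppp1r17 and Skor2 under 1 CPM on average, and the 6 that passed the filter all had a positive log2 fold change, as did 50.1% of all genes (3 with an unadjusted p under 0.05, where 11.8% of all genes were higher). With each library's GC trend removed, described below, 1 of the 6 was higher by that measure, where 7.48% of all genes were. The 8 markers of Bergmann glia and astrocytes summed to 819 to 1281 CPM in KO and 597 to 1002 CPM in WT. Fabp7 made up most of that sum, at a mean of 688 CPM in KO and 513 CPM in WT. Of these 8 markers 5 had a positive log2 fold change and 3 a negative one (Gfap, Aldh1l1 and Hopx). Markers of meninges and fibroblasts summed to 441 to 827 CPM in KO and 451 to 798 CPM in WT. Those of erythroid cells summed to 413 to 701 CPM in KO and 364 to 680 CPM in WT. Endothelial and mural markers summed to 315 to 445 CPM in KO and 299 to 405 CPM in WT. Oligodendrocyte lineage markers summed to 290 to 310 CPM in KO and 295 to 366 CPM in WT. Of the 5 of these that passed the filter, 2 had a positive log2 fold change and 3 a negative one. The part of these cells in the results below was not tested. Gabra6, a receptor subunit of mature granule neurons of the inner layer, was under 1 CPM on average, and the interneuron factor Pax2 and the unipolar brush cell factor Lmx1a were also under 1 CPM.

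All 10 genes passed the filter on low counts. In GRCm38 coordinates Neurod1 lies at chr2:79452521-79456751, Pax6 at chr2:105668900-105697364, Barhl1 at chr2:28907679-28916668 and Insm1 at chr2:146221921-146225020. Neurod2 (chr11:98325415-98329648) and Meis1 (chr11:18879817-19018985) share chromosome 11. Atoh1 is at chr6:64729125-64731245, Barhl2 at chr5:106452523-106458166, Etv1 at chr12:38779380-38870484 and Hes6 at chr1:91411483-91414038. To compare genes with each other, CPM was divided by the length of merged exons in kilobases. Neurod1 stood far above the rest, at 1329 ± 407 CPM per kb in KO and 946 ± 275 CPM per kb in WT (SD, n = 5 each, here and for all means below), rank 26 of 13432 genes. Insm1, a zinc finger factor of neuronal progenitors, followed at 200 ± 47.3 CPM per kb in KO and 204 ± 23.0 in WT (rank 231), and Hes6, a bHLH protein that counters Hes1, at 75.3 ± 6.91 in KO and 88.7 ± 11.2 in WT (rank 672). Pax6, a paired-box homeodomain factor, was at 53.0 ± 6.96 CPM per kb in KO and 42.0 ± 4.69 in WT, and Atoh1 was at 45.2 ± 5.10 in KO and 43.5 ± 7.87 in WT. Barhl1, a homeodomain factor of the lineage that depends on Atoh1, was at 30 ± 4.54 CPM per kb in KO and 40.6 ± 7.20 in WT. Neurod2 was at 14.5 ± 2.57 in KO and 16.1 ± 3.57 in WT, and Barhl2 at 14.7 ± 2.63 in KO and 15.5 ± 1.22 in WT. Meis1, a homeodomain cofactor of the TALE class, was at 7.91 ± 1.37 CPM per kb in KO and 6.82 ± 0.467 in WT. Etv1, an ETS factor of maturing granule neurons, was lowest at 1.27 ± 0.302 in KO and 0.851 ± 0.250 in WT (rank 10750).

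In that order, the ranges over the 10 libraries did not overlap between Neurod1, Insm1, Hes6 and Pax6, between Barhl1 and Neurod2, or from Barhl2 through Meis1 to Etv1. Pax6 lay above Atoh1 in 7 of 10 libraries, Atoh1 above Barhl1 in 9 of 10, and Neurod2 above Barhl2 in 4 of 10, so these neighbours were not separated by their spread. The place of Pax6 depends on its length. Its 26 annotated transcripts merge to 11694 bases while the longest has 4427, and per kilobase of the longest transcript Pax6 was at 140 CPM in KO and 111 CPM in WT, above Hes6 at 86.6 in KO and 102 in WT. The members also differed in how much they varied between libraries of the same group. Neurod1 had a coefficient of variation of 30.6% in KO and 29.1% in WT, and Etv1 23.7% in KO and 29.4% in WT, while Hes6 had 9.18% in KO and 12.6% in WT.

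**Figure D1:**
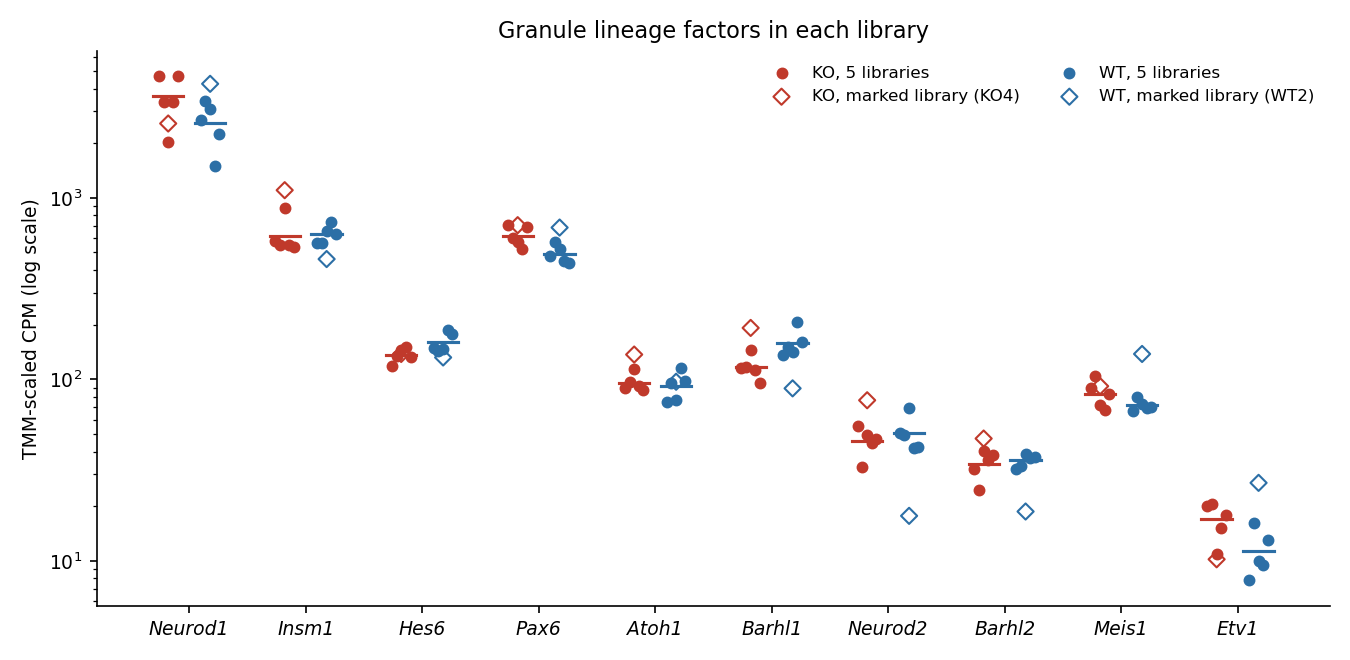
TMM-scaled CPM on a log axis of the 10 factors in every library, in order of level per kilobase. Red circles are the 5 KO libraries, blue circles the 5 WT libraries, open diamonds the marked libraries KO4 and WT2, and bars the means of 5. KO and WT overlap for each gene, and WT2 lies outside the range of the other WT libraries for each gene except Atoh1.

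The promoters of the members were searched for letters that factors of the lineage can bind, to show what the DNA at their starts holds. RefSeq lists 13 start regions (GRCm38.p6, 250 bases before to 50 after the start) for 9 of the 10 genes. Searched on both strands were CAGCTG and CAGATG, E-boxes of the kind that Atoh1 and Neurod factors bind, and TGACAG, which Meis factors bind. CAGCTG was in 4 of the 13 regions, the 2 of Barhl1 and the 2 of Hes6, against 16.3% of 32851 RefSeq start regions. CAGATG was in 2 of 13 (17.1% of all) and TGACAG in 4 of 13 (19.2% of all). The regions with CAGCTG are shown because this E-box was at both starts of each of these genes. That of Neurod2 is shown because TGACAG and CAGATG overlap in it, sharing their last and first 3 letters. Capitals mark any of the 3 motifs or its reverse complement.
Barhl1, upstream start, chr2:28916619-28916918, minus strand: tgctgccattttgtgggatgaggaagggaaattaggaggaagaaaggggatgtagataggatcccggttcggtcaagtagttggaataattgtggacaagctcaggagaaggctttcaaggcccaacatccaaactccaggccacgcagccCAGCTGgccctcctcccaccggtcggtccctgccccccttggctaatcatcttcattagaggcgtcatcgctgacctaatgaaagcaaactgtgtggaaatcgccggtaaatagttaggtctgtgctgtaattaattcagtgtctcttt
Barhl1, downstream start, chr2:28912446-28912745, minus strand: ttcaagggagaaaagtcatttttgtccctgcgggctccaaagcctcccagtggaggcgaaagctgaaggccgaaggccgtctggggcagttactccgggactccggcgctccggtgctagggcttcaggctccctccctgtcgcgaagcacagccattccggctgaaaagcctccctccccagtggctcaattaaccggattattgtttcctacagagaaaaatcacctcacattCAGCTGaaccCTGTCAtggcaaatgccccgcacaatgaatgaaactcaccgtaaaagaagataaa
Hes6, upstream start, chr1:91413989-91414288, minus strand: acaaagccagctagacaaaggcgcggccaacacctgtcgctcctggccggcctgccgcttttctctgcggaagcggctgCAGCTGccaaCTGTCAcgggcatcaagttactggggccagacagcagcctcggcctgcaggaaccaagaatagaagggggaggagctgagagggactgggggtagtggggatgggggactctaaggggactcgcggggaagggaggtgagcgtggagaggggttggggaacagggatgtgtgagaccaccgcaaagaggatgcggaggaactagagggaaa
Hes6, downstream start, chr1:91413173-91413472, minus strand: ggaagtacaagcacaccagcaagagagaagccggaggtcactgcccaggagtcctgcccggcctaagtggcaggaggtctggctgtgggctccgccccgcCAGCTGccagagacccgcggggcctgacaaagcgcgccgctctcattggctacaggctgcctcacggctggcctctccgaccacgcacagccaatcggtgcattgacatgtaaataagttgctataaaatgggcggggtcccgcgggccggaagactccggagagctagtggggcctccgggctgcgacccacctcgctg
Neurod2, only start in the table, chr11:98329596-98329895, minus strand: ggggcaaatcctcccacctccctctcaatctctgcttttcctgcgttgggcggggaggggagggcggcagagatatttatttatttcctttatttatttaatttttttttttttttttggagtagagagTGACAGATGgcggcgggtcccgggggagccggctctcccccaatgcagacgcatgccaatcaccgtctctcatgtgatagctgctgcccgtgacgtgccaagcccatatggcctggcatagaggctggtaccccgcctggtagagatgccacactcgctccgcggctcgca
In these regions CAGCTG begins 99 and 15 bases before the starts of Barhl1, and 171 and 150 bases before those of Hes6. A match describes the letters only. The regions of Atoh1 and Neurod1 held none of the 3 motifs.

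By edgeR's quasi-likelihood test of KO against WT, 0 of the 10 factors had a Benjamini-Hochberg adjusted p under 0.05. Over all genes 3 of 13442 did (0.0223%). Taking unadjusted p under 0.05 instead, 5 of the 10 passed, where 21.8% of all genes did. Of these, 3 had higher levels in KO (Neurod1, Pax6, Etv1), against 11.8% of all genes, and 2 had lower levels (Barhl1, Hes6), against 9.97% of all genes. Positive log2 fold changes were found for 5 of 10, against 50.1% of all genes. DESeq2 called 1 of the 10, Barhl1 as lower (log2 fold change -0.43, adjusted p = 0.0451), among 449 genes (3.34%). With no filter beyond a count of 1, edgeR's test passed 2 of the 10, Barhl1 (adjusted p = 0.0153) and Etv1 (adjusted p = 0.0334), where 3.49% of genes passed. The median log2 fold change of KO over WT was 0.02 over the 10 factors and 0.00 over all genes tested. For none of the 10 did the 5 KO and 5 WT libraries separate, against 2.35% of all genes (1.04% with KO above WT and 1.31% with KO below).

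Atoh1 had 89.5 CPM (KO2), 96.3 (KO3), 114 (KO5), 91.8 (KO6) and 87.1 (KO8), against 75.1 CPM (WT1), 96.0 (WT3), 76.6 (WT5), 115 (WT6) and 98 (WT7). The groups overlapped throughout, with KO5 and WT6 highest in their groups. The log2 fold change of KO over WT was 0.06 (SE 0.125, 95% interval -0.20 to 0.32, adjusted p = 0.811 in edgeR's test). Without each library's GC trend, described below, it was 0.16 (interval -0.06 to 0.39).

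Barhl1 had the smallest p of the 10. Barhl1 had 116 CPM (KO2), 117 (KO3), 145 (KO5), 113 (KO6) and 95.6 (KO8), against 136 CPM (WT1), 150 (WT3), 141 (WT5), 206 (WT6) and 160 (WT7). The groups touched through KO5 alone, which lay above WT1 and WT5, and the 4 other KO libraries lay below all 5 WT libraries. The mean was 117 ± 17.7 CPM in KO and 158.5 ± 28.1 CPM in WT. On the log2 scale the difference was -0.43 with an SE of 0.128, and edgeR's test gave an adjusted p = 0.131 (unadjusted p = 0.00328). A two-sided exact permutation test over the 10 libraries gave p = 0.0238, unadjusted. The marked libraries lay the other way round, at 192 CPM in KO4 and 89.2 CPM in WT2, and with both included the log2 fold change was -0.18 (adjusted p = 0.9985). Its relative Barhl2 was at 24.6 to 40.1 CPM in KO and 32.2 to 39.0 CPM in WT, with KO3 lowest. Its log2 fold change was -0.07 (interval -0.34 to 0.21, adjusted p = 0.795 in edgeR's test), and 0.03 without KO3.

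Hes6 had 118 CPM (KO2), 134 (KO3), 145 (KO5), 151 (KO6) and 133 (KO8), against 148 CPM (WT1), 143 (WT3), 147 (WT5), 187 (WT6) and 177 (WT7). KO5 and KO6 reached into the WT range and the other 3 KO libraries lay below it. The log2 fold change was -0.24 (SE 0.106, unadjusted p = 0.0395, adjusted p = 0.208 in edgeR's test; exact permutation p = 0.0635). Insm1 had 579 CPM (KO2), 549 (KO3), 881 (KO5), 551 (KO6) and 537 (KO8), against 566 CPM (WT1), 565 (WT3), 653 (WT5), 737 (WT6) and 635 (WT7). A single KO library, KO5, lay above all WT libraries, and KO3, KO6 and KO8 lay below them. The log2 fold change of Insm1 was -0.03 (interval -0.31 to 0.26, adjusted p = 0.925), and it was 0.22 with KO4 (1102 CPM) and WT2 (460 CPM) included (adjusted p = 0.9985).

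Next come the factors of differentiating cells. Neurod1 had 4693 CPM (KO2), 3388 (KO3), 2028 (KO5), 3352 (KO6) and 4677 (KO8), against 2669 CPM (WT1), 3406 (WT3), 3102 (WT5), 1498 (WT6) and 2235 (WT7). KO2 and KO8 lay above every WT library, while KO5 was the second lowest of the 10. The mean was 3628 ± 1110 CPM in KO and 2582 ± 751 CPM in WT, a log2 fold change of 0.49 with a wide interval of 0.01 to 0.97 (SE 0.225, adjusted p = 0.219 in edgeR's test; exact permutation p = 0.167). The marked libraries lay the other way round, at 2568 CPM in KO4 and 4248 CPM in WT2, and with both included it was 0.27 (adjusted p = 0.9985). With a surrogate variable for unmodelled variation it was -0.11 (adjusted p = 0.935). That variable was -0.43 in KO2, -0.40 in KO3, -0.42 in KO8, -0.08 in KO6 and 0.37 in KO5, and -0.05 (WT3) to 0.48 (WT6) in WT. It thus ran close to the GC trend described below and differed between the groups, so this fit can also take out part of the group difference. Neurod1 overlaps Cerkl on its own strand by 201 bases of exon and Gm26755 on the opposite strand by 154, and reads that the counting could not assign to 1 gene were tallied apart as ambiguous and are not in these values. Neurod2, a close relative that acts in granule neuron survival in mice, was at 33.1 to 55 CPM in KO and 41.6 to 69.4 CPM in WT (log2 fold change -0.15, interval -0.47 to 0.17, adjusted p = 0.577). For Neurod2 the marked libraries were far apart, at 76.7 CPM in KO4 and 17.7 CPM in WT2, and the sign turned to 0.17 with both included (adjusted p = 0.9985).

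Pax6 is needed for granule cell migration in mice. Pax6 had 710 CPM (KO2), 604 (KO3), 568 (KO5), 521 (KO6) and 694 (KO8), against 476 CPM (WT1), 568 (WT3), 525 (WT5), 448 (WT6) and 436 (WT7). KO2, KO3 and KO8 lay above all WT libraries, and KO6 lay below WT3 and WT5. The mean was 619 ± 81.4 CPM in KO and 491 ± 54.9 CPM in WT (log2 fold change 0.34, SE 0.112, unadjusted p = 0.00766, adjusted p = 0.141 in edgeR's test; exact permutation p = 0.0397). KO4 and WT2 were alike at 707 and 686 CPM, and the log2 fold change with both included was 0.28 (adjusted p = 0.9985).

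Meis1, which promotes granule cell differentiation in mice and lies upstream of Pax6 there, was at 67.9 to 104 CPM in KO and 66.6 to 79.6 CPM in WT. KO2, KO3 and KO8 lay above all WT libraries. The log2 fold change was 0.22 (SE 0.118, interval -0.03 to 0.46, adjusted p = 0.291 in edgeR's test). Its exons overlap the unconfirmed gene Gm37818 on the same strand by 1029 bases and the antisense gene Gm16140 by 896. Etv1 had 20 CPM (KO2), 20.7 (KO3), 10.9 (KO5), 15.1 (KO6) and 18 (KO8), against 7.80 CPM (WT1), 16.2 (WT3), 9.99 (WT5), 9.53 (WT6) and 13.1 (WT7). KO5 lay among the WT libraries, and KO2, KO3 and KO8 lay above all of them. The log2 fold change of 0.58 was the largest of the 10 (SE 0.208, unadjusted p = 0.0120, adjusted p = 0.15 in edgeR's test; exact permutation p = 0.0476). WT2, at 26.9 CPM, was the highest of all 12 libraries for Etv1 and KO4 was at 10.2 CPM. With both included the log2 fold change was 0.19 for Etv1 and 0.03 for Meis1 (adjusted p = 0.9985 for each).

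KO5 moved the calls more than any other library. Without KO5, 4 of the 10 factors passed in edgeR's test, Barhl1 as lower (log2 fold change -0.52, adjusted p = 0.00307) and Neurod1 (0.64, adjusted p = 0.0308), Pax6 (0.37, adjusted p = 0.0153) and Etv1 (0.71, adjusted p = 0.00912) as higher. In that fit 3102 of 13562 genes (22.9%) passed, so the share among the factors is to be read against a background of that size. Leaving out any other single library gave 0 of 10, as did leaving out KO2, whose genotype tag goes against its title, or counting it as WT.

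The order of the log2 fold changes broadly followed the GC content of the transcripts. The 4 members with the lowest GC content, Etv1 (39.8%), Meis1 (42.4%), Neurod1 (43.6%) and Pax6 (49.3%), had positive log2 fold changes. Atoh1 (53.1%) and Barhl2 (54.3%) were near 0. Neurod2 (58.7%), Barhl1 (60.6%), Hes6 (61.7%) and Insm1 (62.0%) had negative ones, that of Insm1 being -0.03. The same order was found over all genes tested. Of 3725 genes with a GC content under 45%, 80.8% had a higher fitted level in KO, with a median log2 fold change of 0.22, and of 597 genes at 60% or more, 20.9% did, with a median of -0.18.

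Libraries differed in this trend within groups too. The difference in log2 CPM between genes of high and low GC content (57.9% against 40.9%), relative to the mean of the 12 libraries, was -0.40 in KO3, -0.38 in KO2, -0.33 in KO8, 0 in KO6, 0.35 in KO5 and 0.36 in KO4, and 0.06 in WT3, 0.21 in WT5, 0.24 in WT1, 0.26 in WT7, 0.49 in WT6 and -0.86 in WT2. KO5 thus lay with the WT libraries and WT2 beyond the KO libraries. Across the 10 compared libraries Neurod1 was lower where this measure was higher (Pearson's r = -0.89, Spearman's rho = -0.90), and so were Etv1 (r = -0.88, rho = -0.85), Meis1 (r = -0.84, rho = -0.70) and Pax6 (r = -0.83, rho = -0.77). Barhl1 (r = 0.84, rho = 0.78), Hes6 (r = 0.81, rho = 0.76) and Insm1 (r = 0.70, rho = 0.79) went the other way, and Atoh1 (r = 0.30, rho = 0.43) and Neurod2 (r = 0.20, rho = -0.04) followed it little. Without KO2 and KO3, the libraries farthest from the median, r was -0.94 for Neurod1 and 0.90 for Barhl1, and for Barhl2 it was 0.05 instead of 0.58. These are descriptions over 10 libraries, in which each gene is itself part of the trend, and the KO and WT groups differ in the trend.

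**Figure D2:**
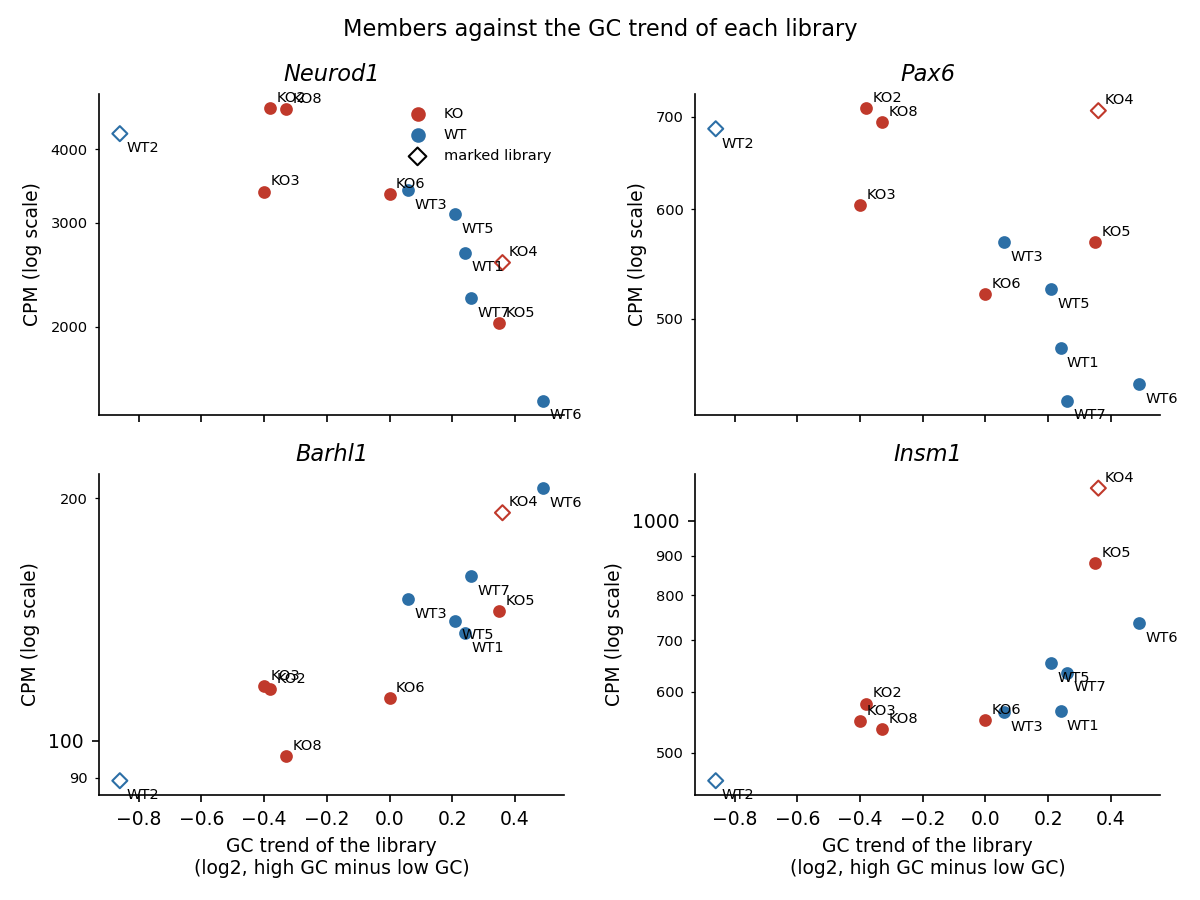
CPM of Neurod1, Pax6, Barhl1 and Insm1 on log axes against each library's GC trend (log2 difference between genes of high and low GC content), with KO in red, WT in blue and the marked libraries as open diamonds. Among the 10 compared libraries Neurod1 is highest in KO2 and KO8 on the left and lowest in WT6 on the right, Barhl1 runs the other way, and on the horizontal axis KO5 sits among the WT libraries.

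With each library's GC trend removed, 0 of 10 factors passed in edgeR's test. The log2 fold changes were then 0.36 for Pax6 (SE 0.108, unadjusted p = 0.00344, adjusted p = 0.177) and -0.25 for Barhl1 (SE 0.104, unadjusted p = 0.0251, adjusted p = 0.261), the only 2 of the 10 with an unadjusted p under 0.05, where 7.48% of genes were higher in KO and 8.12% were lower by that measure. The value for Pax6 was 0.34 without this correction, but 0.18 with KO2 counted as WT (adjusted p = 0.792). It was 0.17 with the surrogate variable (adjusted p = 0.777), which is not independent of the GC trend or of the groups. Neurod1 went to 0.33 (adjusted p = 0.434), Etv1 to 0.31 (0.376), Meis1 to 0.02 (0.942) and Hes6 to -0.05 (0.814). Insm1 (0.14), Barhl2 (0.06) and Neurod2 (0.03) turned positive, with adjusted p of 0.521, 0.836 and 0.946. Skil had a log2 fold change of -0.94 in that fit (adjusted p = 0.000749), against -0.70 (adjusted p = 0.124) without the correction. Without KO5 in the corrected fit Pax6 passed (log2 fold change 0.40, adjusted p = 0.0107), 1 of 10 factors where 11.8% of genes passed.

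**Figure D3:**
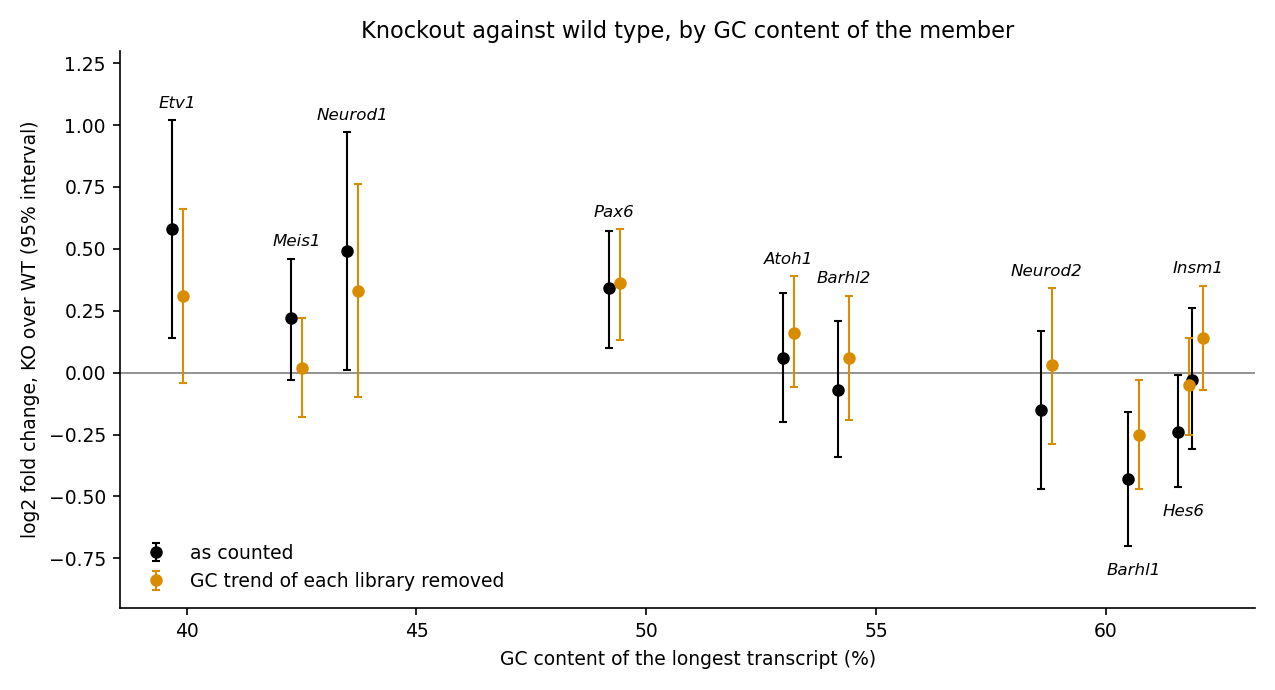
Log2 fold change of KO over WT for the 10 factors with 95% intervals, against the GC content of the longest transcript in percent, as counted (black) and with each library's GC trend removed (orange). The black points are highest for Etv1 at 0.58 on the left and lowest for Barhl1 at -0.43 on the right, with Insm1 at -0.03 at the highest GC content, and the orange points lie between -0.25 and 0.36.

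Within the groups, some pairs of factors varied together from library to library. For each gene the deviation of log2(CPM + 1) from its group mean was correlated over the 10 libraries. Differences between libraries in depth, dissection or the GC trend can move many genes at once, so r is a description. Of 45 pairs, 7 had r above 0.60 and 6 had r below -0.60. Atoh1 and Barhl1 had the highest value (r = 0.90, rho = 0.88; 0.70 without WT6 and KO5, the libraries farthest from the median of Atoh1), and it stayed at 0.86 with the GC trend removed. Atoh1 had r = 0.67 with Hes6 and 0.65 with Insm1 (0.47 for each with the trend removed), but 0.41 and -0.06 without WT6 and KO5. Barhl1 with Insm1 had r = 0.80 (0.61 with the trend removed), but 0.28 without WT6 and KO5, so it rested on those libraries. So did Barhl1 with Hes6 (r = 0.62, and 0.25 without them) and Insm1 with Hes6 (0.45, and 0.04 without them). Neurod1 with Pax6 had r = 0.76 (rho = 0.87; 0.94 without KO5 and WT6) and 0.79 with the trend removed.

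The most negative values of Neurod1 were r = -0.87 with Barhl1, -0.80 with Insm1, -0.80 with Hes6 and -0.77 with Atoh1. With the GC trend removed these were -0.70, -0.68, -0.40 and -0.59. Without KO5 and WT6 the first was -0.45, that with Insm1 -0.12 and that with Hes6 -0.81, and that with Atoh1 was -0.28, so most of these relations rested on the KO5 and WT6 libraries. Neurod1 with Neurod2 went the other way, at r = 0.40 as counted and 0.73 with the trend removed, and Meis1 with Etv1 had 0.74 and then 0.40. Barhl1 with Meis1 (-0.19 as counted) and Atoh1 with Etv1 (-0.03) had 0.64 and 0.57 with the trend removed. The sign of r was the same before and after removal for 30 of 45 pairs. The related pair Barhl1 and Barhl2 had r = 0.15.

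**Figure D4:**
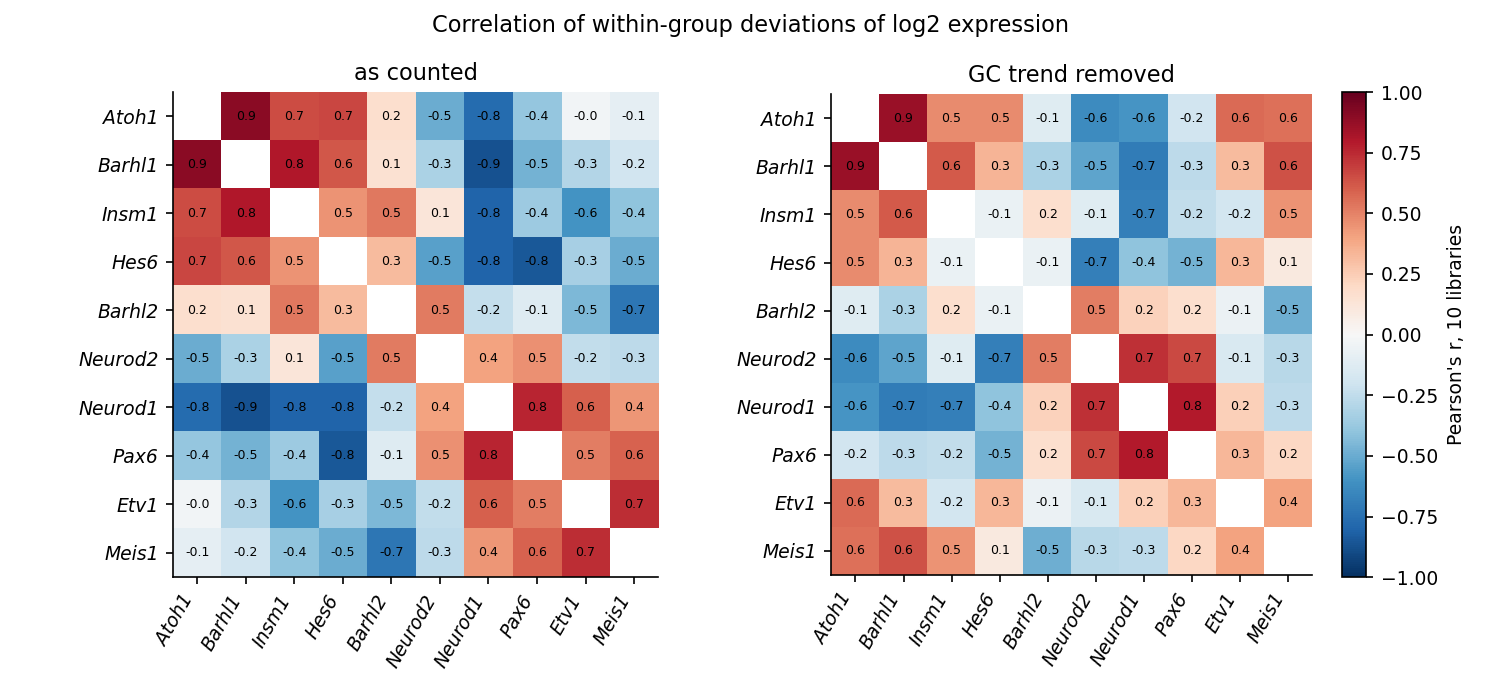
Pearson's r of within-group deviations of log2 expression for each pair of the 10 factors over 10 libraries, as counted (left) and with the GC trend removed (right), red for positive and blue for negative. Atoh1 with Barhl1 (0.90 and 0.86) and Neurod1 with Pax6 (0.76 and 0.79) are high on both sides, and Neurod1 with Barhl1 is negative on both (-0.87 and -0.70).

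The genes whose log2(CPM + 1) followed each factor most closely over the 10 libraries were taken from those with a mean of at least 20 CPM. For Neurod1 they were Sema3d (r = 0.990), a secreted guidance cue, St18 (0.987), a zinc finger factor of the Myt1 family, and Cnr1 (0.985), the cannabinoid receptor of neurons. For Pax6 they were the splicing factor gene Srsf11 (0.976), the nuclear receptor cofactor Nrip1 (0.970) and the topoisomerase Top2b (0.965). Atoh1 was followed by Eln, which encodes elastin (0.916), Syt13 (0.915) and the deadenylase Parn (0.893). Barhl1 was followed by Tmem246 (0.984), the spliceosome component Prpf8 (0.983) and the helicase Ddx27 (0.976). For Insm1 the first was the histone methyltransferase Ehmt1 (0.960), for Hes6 Wdr4 (0.964), for Meis1 Ankrd17 (0.971), for Etv1 Arhgap29 (0.965), for Neurod2 Ppp1r13b (0.857) and for Barhl2 Pde9a (0.919). These genes share libraries and the GC trend with the factor they follow. The 3 genes nearest to Neurod1 have GC contents of 39.2% to 44.9%, close to its own 43.6%, but this was not so for every factor. The 3 nearest to Insm1 (62.0%) have 50.2% to 54.4%, and the 3 nearest to Barhl1 (60.6%) have 51.5% to 54.9%. With 7069 genes to choose from over 10 libraries these values of r are a ranking and not a test.

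Other genes of the lineage were described by lists chosen with earlier results of these data known. Of 37 other transcription factors of the granule lineage 35 passed the filter, and by unadjusted p under 0.05 the KO level was higher for 10 and lower for 3 (7 and 2 with the GC trend removed). Over all genes 11.8% were higher and 9.97% lower by that measure, and 7.48% and 8.12% with the trend removed, which is the background for each of these lists. The adjusted p in edgeR's test was at least 0.124 for all 35. The median log2 fold change of the 35 was 0.19. Nhlh2, a bHLH factor of early neurons, was at 290 ± 35.3 CPM in KO and 228 ± 20.3 CPM in WT and did not overlap between the groups (log2 fold change 0.35, and 0.39 with the trend removed; adjusted p = 0.131 and 0.157). Of all genes 1.04% were without overlap and higher in KO, and Nhlh2 is named for its small p in this list. Nfia and Nfix, factors of granule neuron development, had log2 fold changes of 0.76 and -0.66 (adjusted p = 0.124 for each), and 0.57 and -0.50 with the trend removed. Mef2c, a MADS-box factor of maturing neurons, was at 22.9 ± 4.59 CPM in KO and 15.7 ± 3.43 CPM in WT (log2 fold change 0.54, adjusted p = 0.140; 0.31 and 0.326 with the trend removed).

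Of 13 E proteins, Id, Hes and Hey genes, which pair with bHLH activators or oppose them, 11 passed the filter, 4 were higher and 0 lower by that measure (3 and 0 with the trend removed), against 11.8% and 9.97% of all genes (7.48% and 8.12%). The median log2 fold change of the 11 was 0.17. They were the E protein genes Tcf4 (1630 ± 270 CPM in KO and 1172 ± 174 CPM in WT) and Tcf12 (198 ± 29.5 CPM in KO and 162 ± 18.1 CPM in WT), Id4 (9.43 ± 2.80 CPM in KO and 5.44 ± 1.24 CPM in WT) and Hes1 (5.75 ± 1.49 CPM in KO and 3.76 ± 1.14 CPM in WT). With the trend removed the log2 fold change was 0.24 instead of 0.48 for Tcf4 and 0.16 instead of 0.29 for Tcf12, and it was 0.61 for Id4 and 0.64 for Hes1. None of them passed over all genes, with adjusted p from 0.131 to 0.199 in edgeR's test. Of 12 precursor genes, 1 was higher, Mycn (log2 fold change 0.35, adjusted p = 0.131; 0.49 and 0.0986 with the trend removed), and 0 were lower (1 and 1 with the trend removed). Ptch1, the hedgehog receptor, and the cell cycle kinase gene Cdk1 had log2 fold changes of 0.31 and -0.22 (adjusted p = 0.287 and 0.370). The median log2 fold change of the 12 was -0.07.

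Of 16 genes of early granule neurons, 1 was higher, Dcx (636 ± 208 CPM in KO and 453 ± 59.6 CPM in WT), and 4 were lower, among them L1cam, Dcc and Cntn2, against 11.8% and 9.97% of all genes. With the trend removed 1 was higher and 3 were lower, against 7.48% and 8.12% of all genes. The log2 fold changes of L1cam, Dcc and Cntn2 were -0.52, -0.72 and -0.37 as counted and -0.41, -0.84 and -0.20 with the trend removed. L1cam did not overlap between the groups, at 9.71 to 15.9 CPM in KO and 18.1 to 23.1 CPM in WT (adjusted p = 0.131 in edgeR's test). Over all genes 1.31% were without overlap and lower in KO. Dcx, a microtubule protein of migrating neurons, had a log2 fold change of 0.49 as counted and 0.22 with the trend removed (adjusted p = 0.184 and 0.464 in edgeR's test). Of 12 genes of maturing granule neurons 9 passed the filter, leaving out Gabra6, Grin2c and Cbln3. Of the 9, 4 were higher and 1, Cbln1, was lower (2 and 1 with the trend removed), against 11.8% and 9.97% of all genes (7.48% and 8.12%). Tiam1, a Rac activator, was at 8.67 ± 0.943 CPM in KO and 6.15 ± 1.55 CPM in WT (log2 fold change 0.48, adjusted p = 0.175 in edgeR's test; 0.57 and 0.205 with the trend removed). Snap25, a synaptic vesicle fusion protein, was at 69.3 ± 10.3 CPM in KO and 47.9 ± 5.56 CPM in WT without overlap (log2 fold change 0.53, adjusted p = 0.124; 0.24 and 0.253 with the trend removed). Of all genes 1.04% were without overlap and higher in KO. The median log2 fold change was -0.05 for the early list and 0.38 for the maturing list as counted, and 0.05 and 0.24 with the trend removed. Neither list had a member that passed over all genes tested.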

How the data were processed

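Per the labels' protocols, RNA from the laser-cut layer was purified on micro columns and made into NEBNext Ultra libraries. The deposited values are raw read counts per gene, 1 table per library. The authors used HTSeq 0.6.1, STAR 2.5.3a, cutadapt 1.16 and DESeq2 with build mm10, per the submitters' processing notes; annotation release and strand setting: not given in the sources used here. Summary rows were left out; reads placed in several genes or at several places were not counted (64.4% to 67.6% of records had several placements, and 6.81% to 8.13% of uniquely placed reads were ambiguous).

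Groups came from the titles. Counts were filtered with filterByExpr (minimum count 10), scaled by TMM, and KO was tested against WT in R 4.3.3 using edgeR 4.0.16 (quasi-likelihood fit, robust) and limma 3.58.1, with Benjamini-Hochberg adjustment over all 13442 genes. An SE is the log2 fold change divided by the root of F. Printed CPM use the filter and TMM factors of all 12 libraries. Exact permutation tests are two-sided, on log2(CPM + 1), 1 per member, unadjusted. Symbols, lengths and GC content came from GENCODE M21 (GRCm38, also called mm10), which matched 53274 of 53379 identifiers. The GC trend of a library is a spline (5 degrees of freedom) of log2 CPM on the GC content of the longest transcript, entered as an offset. All 30 within-group pairs of libraries differed beyond sampling noise (chi-square divided by its degrees of freedom, 6.51 to 94.1). DESeq2 1.42.0 and sva 3.50.0 were used in alternatives. The procedure was tested on simulated counts.

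The members, the gene lists and the 3 motifs were chosen with earlier results of these data known. Named genes are the 10 members, Skil, up to 4 genes with the smallest p of each list of lineage genes, and the 3 nearest genes of each member, of which only the first is given for 6 members. Correlations with the GC trend, correlations after its removal, and fits that add WT2 or KO4 alone or leave out a library after GC correction were chosen after seeing the data.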

Additional observations from a re-analysis of the deposited data

Results flagged for a closer look

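Insm1 in KO5, at 881 CPM, stood apart from the other 4 KO libraries, the nearest of which was at 579 CPM. The gap was 0.879 of the group's range, above the 95% critical value of 0.71 for 5 values. It was the single such value among 20 groups of 5 libraries (10 genes in KO and in WT), and chance alone gives about 1 in 20. Insm1 was also high in KO4, at 1102 CPM.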

How the results depend on the processing

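Pax6, Barhl1, Etv1 and Hes6 kept the sign of their log2 fold change under all 35 alternatives (0.13 to 0.42, -0.52 to -0.11, 0.12 to 0.74 and -0.32 to -0.01). Of the 10 factors, 1 was called by DESeq2, 2 with no filter beyond a count of 1, and 0 to 4 with 1 library left out (1 at most with the GC trend also removed), the highest without KO5. Genes called, 3 in the fit reported, were 449 by DESeq2, 965 with no filter, 1 with all 12 libraries, 1 with a surrogate variable, 1 with KO4 added, 0 with KO2 counted as WT (756 at an unadjusted p under 0.05), 5 with the GC trend removed, and 0 to 3102 with 1 library left out (3 to 1598 with the GC trend removed), the highest without KO5. Among the 10 compared libraries KO and WT share the numbers 3, 5 and 6, and the labels do not say that equal numbers pair libraries. The deviations of same-numbered libraries had r = 0.11, -0.05 and 0.09 over genes. These values cannot decide whether the numbers pair libraries, which also differ in the GC trend. With the replicate number as a block edgeR called 0 genes (607 at an unadjusted p under 0.05). With the GC trend also removed it called 0 (569), and Meis1 turned to -0.016 and Insm1 to 0.12. Pax6 was 0.14 with the block and 0.134 with both. In what follows, leaving out 1 library covers fits as counted and with the GC trend removed. Signs turned, all without a call, for Atoh1 with library size alone (-0.024) and with 1 library left out (-0.013 to 0.237), for Neurod1 with the surrogate variable (-0.11), and for Meis1 with 1 library left out (-0.037 to 0.28). Neurod2 turned to 0.17 with all 12 libraries, 0.029 with the GC trend removed, 0.26 with both, 0.01 with WT2 added, 0.005 with KO4 added, and ranged from -0.22 to 0.18 with 1 library left out. Barhl2 turned to 0.14, 0.062, 0.207, 0.047 and 0.023 in the same 5 settings and 0.07 with the surrogate variable, and ranged from -0.13 to 0.15. Insm1 turned to 0.215, 0.138, 0.262, 0.035 and 0.149 in those 5 settings, 0.25 with the surrogate variable and 0.018 with KO2 as WT, and ranged from -0.19 to 0.19. The cause of these changes was not tested. Counts of 77 to 250 reads make Etv1 the least precisely counted factor.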

Other observations

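Ratios within a library do not depend on its scaling, but they can carry its GC trend where the 2 genes differ in GC content. Neurod1 is at 43.6%, Atoh1 at 53.1%, Neurod2 at 58.7%, Barhl2 at 54.3% and Barhl1 at 60.6%, and the ratios below are not corrected for the trend. The log2 ratio of Neurod1 to Atoh1 CPM was 5.19 ± 0.645 in KO (4.15 to 5.75) and 4.77 ± 0.676 in WT (3.70 to 5.34; SD, n = 5 each), with KO4 at 4.22 and WT2 at 5.45. That of Neurod2 to Neurod1 was -6.27 ± 0.535 in KO and -5.64 ± 0.347 in WT, with WT2 lowest of all at -7.90. That of Barhl2 to Barhl1 was -1.79 ± 0.335 in KO and -2.14 ± 0.229 in WT. The ranges of KO and WT overlapped for each of the 3 ratios.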
